A study of Homo sapiens with 10 samples.

Results

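POLE4 encodes the smallest subunit of DNA polymerase epsilon, and its transcript was followed here together with those of the other subunits, POLE, POLE2 and POLE3, and of CHRAC1, which encodes another partner of the POLE3 protein. The 5 genes are 5 of the 18665 genes named on the HN5 arrays and of the 20046 named on the FaDu arrays. POLE4 was chosen by its measured log2 fold changes, which had been among the largest in both cell lines of these data, so its values are a description and carry no test. The other 4 genes were taken for their place in the complexes and not for their values, although earlier results of these data were known. HN5, from a carcinoma of the tongue, and FaDu, from a carcinoma of the pharynx, are established head and neck cancer (HNC) cell lines. Cells of each line were transfected with a synthetic precursor of the microRNA miR-7 or with miR-NC, a negative-control precursor, and RNA was harvested 24 h later. There were 2 arrays of each precursor for HN5 and 3 of each for FaDu. The labels number them as replicates, the study calls them experimental replicates, and the lines were run on different types of Illumina BeadChip. The miR-7 of these cells was a precursor added from outside, and untransfected cells were not part of any comparison.

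DNA polymerase epsilon copies the leading strand at the replication fork. POLE is the large catalytic subunit, with the polymerase and the proofreading exonuclease, and POLE2 is the essential B subunit that ties POLE to the replicative helicase. POLE3 and POLE4 are small histone-fold proteins that form a dimer with each other, bind histones H3 and H4 and hold on to DNA. POLE3 can instead pair with CHRAC1, also a histone-fold protein, and this dimer belongs to the chromatin remodeller CHRAC, with the ATPase SMARCA5 and its partner BAZ1A.

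MicroRNAs lower the level and the translation of messenger RNAs that pair with their seed, bases 2 to 8. The mature miR-7 is shown because it is the molecule that differs between the groups, and its seed is in capitals.
hsa-miR-7-5p: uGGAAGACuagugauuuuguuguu
The sequence is that of RefSeq (GRCh38.p14), where 2 gene copies in the table used encode it, MIR7-1 at chr9:83969811-83969834 on the minus strand and MIR7-3 at chr19:4770700-4770723 on the plus strand. A transcript with a perfect match to this seed holds GUCUUCC. Whether the 5 transcripts hold it was not examined here.

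EGFR, the receptor that the study follows, served as a check of the labels. In HN5, its log2 intensity was 12.05 to 12.11 on the miR-7 arrays and 13.68 to 13.81 on the miR-NC arrays (log2 fold change -1.67, limma adjusted p = 0.0492). In FaDu, it was 9.46 to 9.61 on the arrays labelled miR-7 and 7.91 to 7.98 on those labelled miR-NC (log2 fold change 1.57, limma adjusted p = 2.6e-06). By the labels, the FaDu direction is thus the reverse of the study's, so every FaDu value below is that of the arrays labelled miR-7 relative to those labelled miR-NC, and its sign depends on these labels. HN5 miR-7 replicate 2 stood apart, with a correlation of 0.909 to 0.928 with the other HN5 arrays, which correlated at 0.970 to 0.987 with each other. All 7 squamous epithelial markers on the arrays were detected on all 10 arrays. Of the 5 leukocyte markers, PTPRC, CD3D, LYZ and TYROBP were not detected on every array of either line, but CD14 was in both. The fibroblast and endothelial markers are given below. In bulk RNA, fewer cells of a type and less RNA per cell cannot be told apart.

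Each of the 5 genes had 1 named probe, with the same identifier on both array types, and each was detected on all 10 arrays. Values are log2 intensities after background correction and quantile normalization within a line, and they are not compared between probes or between array types.

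POLE4 had a clearly separate level in the groups of both lines. In HN5, the log2 intensity of POLE4 (probe ILMN_1660063) was 12.75 and 13.14 on the miR-NC arrays and 10.63 and 10.72 on the miR-7 arrays. Both miR-7 arrays were low and both miR-NC arrays were high, with means of 10.67 ± 0.060 and 12.95 ± 0.27 (SD, n = 2 each). POLE4 was thus 4.83-fold lower with miR-7 (log2 fold change -2.27, standard error (SE) 0.21), which ranked it 81 from the lowest of 9549 genes. Without miR-7 replicate 2, the array that stood apart, the log2 fold change was -2.30 and the rank was 3 of 9650 genes. The rank was 228 of 9812 without miR-7 replicate 1, 43 of 9649 without miR-NC replicate 1 and 114 of 9801 without miR-NC replicate 2. The separation was present in the scanner intensities before any correction, at 8727 and 8582 on the miR-NC arrays and 1748 and 1307 on the miR-7 arrays.

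In FaDu, the log2 intensity of POLE4 was 9.13, 9.14 and 9.26 on the arrays labelled miR-NC and 12.56, 12.50 and 12.38 on those labelled miR-7. The 3 arrays of each group lay close together, with means of 9.17 ± 0.076 and 12.48 ± 0.096 (SD, n = 3 each), and the gap between the groups was 3.11. POLE4 was 9.89-fold higher in the arrays labelled miR-7 (log2 fold change 3.31, SE 0.078), the rank 3 from the highest of 9997 genes. The uncorrected intensities were 560.8, 665.5 and 924.5 against 5618, 6351 and 5230.

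POLE3, the histone-fold partner of POLE4, was higher with the miR-7 label in FaDu, and its lower mean with miR-7 in HN5 did not pass the test. In HN5, the log2 intensity of POLE3 (ILMN_1785198) was 14.60 and 14.23 on the miR-NC arrays and 13.56 and 13.06 on the miR-7 arrays. The groups did not overlap, with means of 14.41 ± 0.26 and 13.31 ± 0.35 (SD, n = 2 each), and miR-7 replicate 2 was the lowest array. The 2.14-fold lower level (log2 fold change -1.10, SE 0.26, 95% interval -1.74 to -0.46) did not pass the limma test after adjustment over all genes (limma adjusted p = 0.188). Of 10 alternatives to the processing, 9 kept this outcome, and POLE3 passed only with a robust variance prior (limma adjusted p = 0.0456). With an HN5 array omitted, the log2 fold change of POLE3 ranged from -1.33 to -0.85. The larger drop came with replicate 2, the array that stood apart, as the lone miR-7 array, and the smaller with that array omitted. Each such fit leaves 1 array in a group, so its calls are not counted here.

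In FaDu, the log2 intensity of POLE3 was 10.59, 10.76 and 10.96 on the arrays labelled miR-NC and 12.48, 12.60 and 12.44 on those labelled miR-7. All 3 arrays of the latter group were higher than any of the former, with means of 12.51 ± 0.080 and 10.77 ± 0.19 (SD, n = 3 each). POLE3 was 3.34-fold higher in the arrays labelled miR-7 (log2 fold change 1.74, SE 0.10, 95% interval 1.51 to 1.97, limma adjusted p = 7.9e-06), the rank 44 from the highest of 9997 genes.

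**Figure D1:**
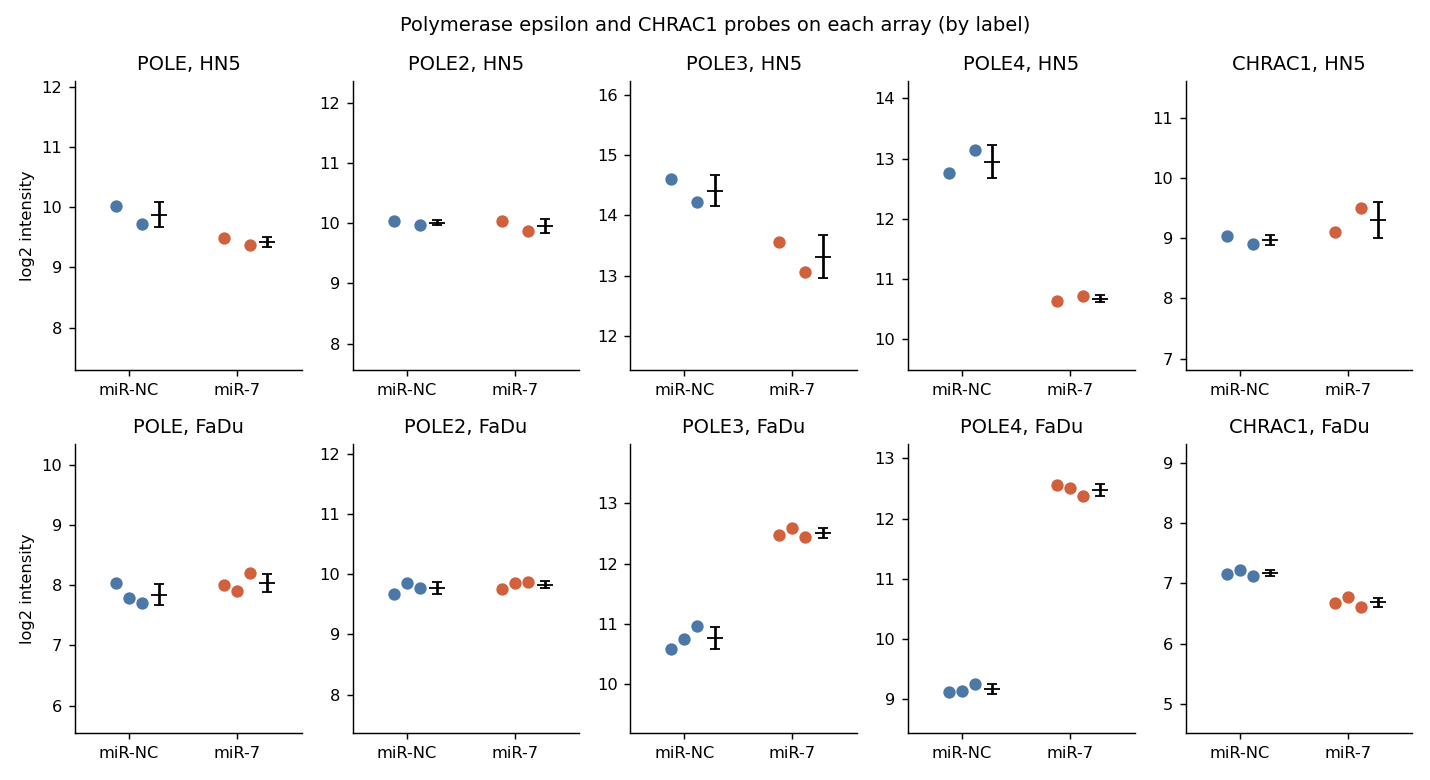
Log2 intensity of the 5 genes on each array, 1 panel per gene and line, with points for arrays and black marks for the mean ± SD of a group. All panels span the same log2 range, and the groups of POLE4 and POLE3 are apart in both lines, while those of POLE2 overlap in both.

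The catalytic subunit and the B subunit did not pass the test in either line. The log2 intensity of POLE (ILMN_1728199) in HN5 was 10.02 and 9.72 on the miR-NC arrays and 9.48 and 9.37 on the miR-7 arrays. Both miR-7 arrays were lower than both miR-NC arrays, by less than POLE3 (log2 fold change -0.44, SE 0.20, 95% interval -0.94 to 0.05, limma adjusted p = 0.418). In FaDu, POLE was 8.03, 7.79 and 7.70 on the arrays labelled miR-NC and 7.998, 7.91 and 8.19 on those labelled miR-7. These groups overlapped (log2 fold change 0.19, SE 0.11, 95% interval -0.06 to 0.44, limma adjusted p = 0.190).

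POLE2 had the smallest log2 fold changes of the 5 genes, -0.06 in HN5 and 0.06 in FaDu. Its log2 intensity (ILMN_1774336) in HN5 was 10.04 and 9.98 on the miR-NC arrays and 10.04 and 9.87 on the miR-7 arrays. In FaDu it was 9.67, 9.86 and 9.77 on the arrays labelled miR-NC and 9.76, 9.85 and 9.87 on those labelled miR-7. The groups overlapped in both lines, and the 95% interval of the log2 fold change ran from -0.51 to 0.40 in HN5 (limma adjusted p = 0.907) and from -0.11 to 0.24 in FaDu (limma adjusted p = 0.553).

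CHRAC1 was lower with the miR-7 label in FaDu, where POLE3 was higher. There, its log2 intensity (ILMN_1722390) was 7.16, 7.22 and 7.13 on the arrays labelled miR-NC and 6.67, 6.77 and 6.61 on those labelled miR-7. The groups did not overlap, with means of 7.17 ± 0.048 and 6.68 ± 0.078 (SD, n = 3 each), and CHRAC1 was 1.40-fold lower in the arrays labelled miR-7 (log2 fold change -0.48, SE 0.071, limma adjusted p = 0.000935). The uncorrected intensities were low, at 211.5, 251 and 296.5 against 187, 213.4 and 187.6, and these groups overlapped. The size of the change depended on the processing, with a log2 fold change of -0.18 on the authors' values. In HN5, it was 9.03 and 8.91 on the miR-NC arrays and 9.10 and 9.51 on the miR-7 arrays, a difference carried mainly by miR-7 replicate 2. The HN5 groups did not overlap, yet the log2 fold change of 0.33 (SE 0.22, 95% interval -0.21 to 0.88) did not pass the test (limma adjusted p = 0.524).

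Of the 4 partners of POLE4, 0 passed an adjusted p of 0.05 in HN5 with limma, 1 had an unadjusted p under 0.05 (POLE3), and 0 did with the methods' t-test. Among all HN5 genes, 0.126% were called lower and 0.178% higher with limma. The study's thresholds, an unadjusted p under 0.05 and a change of at least 1.5-fold, were applied to the limma p. With them, POLE3 was the 1 partner called lower, as were 4.41% of all HN5 genes, and 0 partners were called higher, as were 6.01%. The HN5 groups did not overlap for POLE and POLE3, which were lower with miR-7, as for 20.5% of all genes, nor for CHRAC1, which was higher, as for 27.7% of all genes. In FaDu, 1 of 4 partners was called higher (POLE3) and 1 lower (CHRAC1), against 20% and 21.8% of all genes. Non-overlapping FaDu groups were as common, with 25% of all genes higher and 28.5% lower. At the study's thresholds, POLE3 alone of the 4 was called in FaDu, where 7.28% of all genes were higher and 5.31% lower.

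The lines were compared through the difference of their log2 fold changes, HN5 minus FaDu as labelled. This covered 10566 probes with a named gene, held by both array types and detected in both lines on all arrays of 1 or more groups. The difference of POLE4 was -5.58, and it was not tested. POLE3 had a difference of -2.84 (SE 0.28, 95% interval -3.50 to -2.18, adjusted p = 0.00128 from the limma fits). Of the 10566 probes, 7.7% were called below 0 and 7.66% above. CHRAC1 differed by 0.82 (SE 0.23, limma adjusted p = 0.0632), POLE by -0.64 (SE 0.23, limma adjusted p = 0.0974) and POLE2 by -0.12 (SE 0.20, limma adjusted p = 0.720), and none of these 3 passed. The difference of POLE3 depends on the FaDu labels. With the sign of the FaDu contrast turned, an alternative chosen after the data were seen, it was 0.64 (limma adjusted p = 0.510), that of POLE4 was 1.03 and that of CHRAC1 was -0.15.

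**Figure D2:**
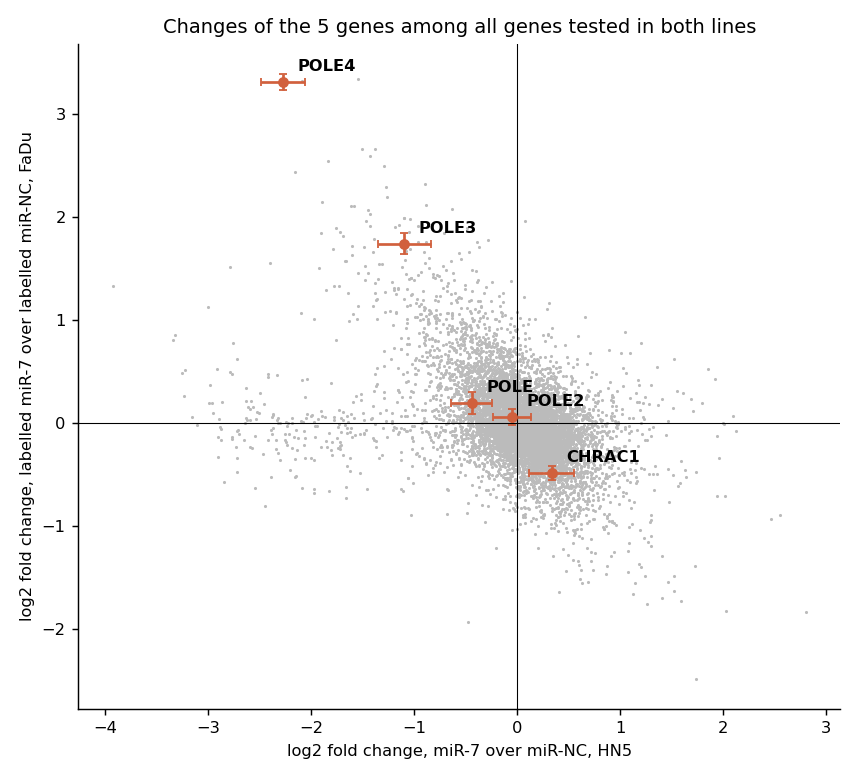
Log2 fold change in HN5 (horizontal axis) against that in FaDu as labelled (vertical axis) for the 5 genes, with error bars of 1 standard error, over all genes tested in both lines. POLE4 at -2.27 and 3.31 and POLE3 at -1.10 and 1.74 lie where HN5 values are lower and FaDu values higher, and POLE2 lies near 0 on both axes.

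POLE3 was next set against its other partners on the same array, which cancels any shift that the arrays' probes share. In HN5, the change of POLE3 was below that of POLE by 0.65, of POLE2 by 1.04 and of CHRAC1 by 1.43 on the log2 scale, and each exact two-sided permutation test gave p = 0.333, the smallest that 2 arrays against 2 allow. In FaDu, the change of POLE3 was above that of POLE by 1.55, of POLE2 by 1.68 and of CHRAC1 by 2.22. The exact two-sided permutation p was 0.1 for each, the smallest that 3 arrays against 3 allow (0.2 after Benjamini-Hochberg adjustment over the 6 comparisons). Neither design can reach 0.05 in this way.

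Likeness to POLE4 was measured as the Euclidean distance between profiles over the 10 arrays, each line centred on its own mean, among 8489 other genes tested in both lines. The distance is computed without group labels, yet POLE4 was chosen for its changes between these groups. Nearness to it is thus a description of like changes and no separate support. The arrays of a line also share their cells and their normalization. CRTAP, of the collagen prolyl 3-hydroxylation complex, was nearest (distance 0.665, Pearson r 0.990), and its log2 fold changes were -2.09 (HN5) and 3.32 (FaDu). PSME3, a proteasome activator subunit, followed at 1.03 (r 0.976). SLC39A11, a zinc transporter, was at 1.12 (r 0.990) and IL1B, the cytokine interleukin 1 beta, at 1.20 (r 0.990). RNF5P1, a pseudogene of the ubiquitin ligase RNF5, was at 1.22 (r 0.985), and whether its probe also binds RNF5 transcripts was not tested. POLE3 was the nearest member of the complex, with rank 43 and a distance of 2.36 (r 0.969). POLE ranked 1333 (r 0.630), POLE2 ranked 2779 (r 0.390) and CHRAC1 ranked 7677 (r -0.898).

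**Figure D3:**
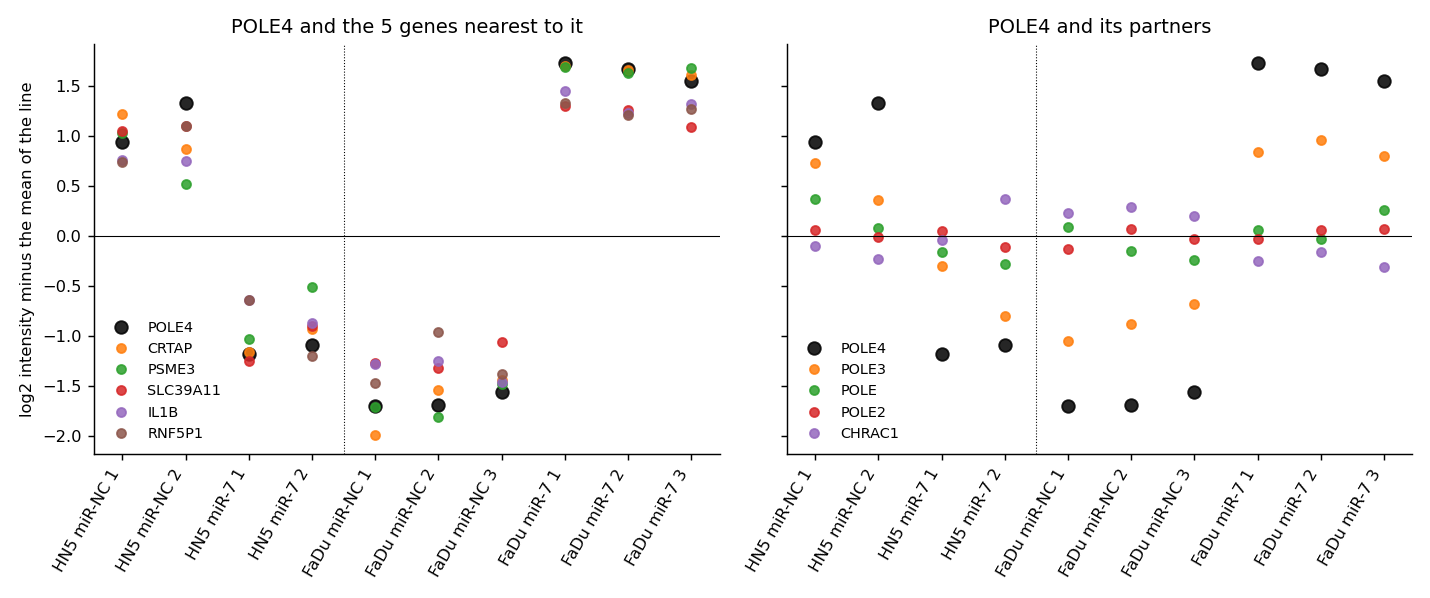
Log2 intensity, centred on the mean of each line, across the 10 arrays for the 5 genes and for the genes with the smallest distance to POLE4. CRTAP runs almost on POLE4, POLE3 follows it with smaller steps, and CHRAC1 steps the other way in FaDu.

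The surroundings of the complex were described through 7 lists of 67 genes in all, which hold other replication proteins and other partners of POLE3 and CHRAC1. In HN5, 60 of these genes were tested, and 0 passed an adjusted p of 0.05 with limma or with the methods' t-test. In each, 5 had an unadjusted p under 0.05, but only SGF29 and YEATS2 did in both. Some passed without miR-7 replicate 1, but in that fit replicate 2 is the lone miR-7 array, so its calls are not counted. DONSON and TIPIN were let in by the detection filter through 1 HN5 group alone. At the study's thresholds with the limma p, RFC5, a clamp loader subunit (log2 fold change -0.85), was called lower, as were 4.41% of all HN5 genes. GINS4 (0.68) and TAF13 (0.90) were called higher, as were 6.01% of all HN5 genes. None of RFC5, GINS4 and TAF13 had an unadjusted p under 0.05 with the methods' t-test. In FaDu, 62 were tested, 16 passed as lower in the arrays labelled miR-7, 7 as higher, and 39 did not pass, where 21.8% of all FaDu genes were called lower and 20% higher. The 7 include GINS1, which the detection filter let in only through the group where it was high, so its call is not read as a result. With an array left out, 8 to 16 were lower (8 without miR-7 replicate 3, 9 without miR-7 replicate 1 or 2, 10 without miR-NC replicate 3) and 4 to 6 higher (4 without miR-7 replicate 3). The median log2 fold change of the listed genes was 0.03 in HN5 and -0.03 in FaDu, and that of all genes was 0.04 and -0.03. None of the 62 genes in FaDu had a change as large as that of POLE3.

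Among the other replicative polymerases, alpha and delta, 1 of 7 genes was lower in FaDu (PRIM1, the primase catalytic subunit, -0.30, limma adjusted p = 0.0141) and 1 was higher (POLD1, the delta catalytic subunit, 0.50, limma adjusted p = 0.0015). In HN5, the 8 genes ran from -0.17 for POLA1 to 0.37 for POLD4. Of the CMG helicase, which POLE2 contacts, 1 of 11 genes was lower in FaDu (GINS2, -0.20). The 1 called higher, GINS1 (0.37), was let in by the detection filter only through the group where it was high. Its call is thus not read as a result. Of the sliding clamp PCNA and its loaders, 1 of 8 was lower (RFC4, -0.23) and 3 were higher, up to 0.42 for CHTF18, the loader subunit that works with polymerase epsilon on the leading strand. Of the proteins that fire origins or travel with the fork, 4 of 10 were lower in FaDu, from DONSON at -0.42 to TICRR at -0.24, and 0 were higher. These counts stand beside the 21.8% of all FaDu genes called lower and the 20% called higher. Whether any list stands out was not tested. Most of these FaDu calls were of small changes that an array left out could end. GINS2 passed in none of the 6 fits with an array left out, RFC4 passed only without miR-NC replicate 1, and the 4 origin-firing calls fell to 1 without miR-NC replicate 1, miR-7 replicate 1 or miR-7 replicate 3.

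The 3 listed genes whose HN5 change was as large as that of POLE3 were low on 1 array alone. CDC45, of the helicase, had a log2 intensity of 11.95 and 11.74 on the miR-NC arrays and of 11.62 and 6.94 on the miR-7 arrays (log2 fold change -2.56, SE 1.42, limma adjusted p = 0.473). PCNA was 11.93 and 11.76 against 12.13 and 8.13, and DONSON was 8.52 and 8.44 against 8.29 and 5.37. In each, miR-7 replicate 1 lay close to the miR-NC arrays and miR-7 replicate 2 far below, whereas both miR-7 arrays were low for POLE4 and POLE3. DONSON passed the detection filter through 1 HN5 group alone.

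Among the partners of the POLE3-CHRAC1 dimer in remodellers, 1 of 5 genes was lower in FaDu (BPTF, -0.45, limma adjusted p = 0.00238), where 21.8% of all genes were. SMARCA5 was the lowest in HN5 (-0.77), again through miR-7 replicate 2, at 6.39 against 8.09 to 8.57 on the other 3 arrays. Of the ATAC acetyltransferase complex, 5 of 11 genes were lower in FaDu, against the same 21.8%, led by the acetyltransferase KAT2B (-0.86, limma adjusted p = 0.000254), and WDR5 was higher (0.38, limma adjusted p = 0.00622). Of other histone-fold proteins, 3 of 11 were lower in FaDu, led by CENPS (-0.45, limma adjusted p = 0.00565), and TAF12 was higher (0.29). In HN5, these ran from 0.00 for DR1 to 0.90 for TAF13, and the ATAC genes from -0.26 for TADA3 to 0.52 for YEATS2. TAF12 passed only without miR-NC replicate 2 or miR-7 replicate 3 among the fits with an array left out, and not with median scaling, without a detection filter or with the methods' t-test. The 3 lower histone-fold calls were 1 without miR-7 replicate 2 and with median scaling, and 5 without background correction, on the authors' values and with the methods' t-test. The 5 lower ATAC calls in FaDu were 3 without miR-NC replicate 3 or any 1 of the miR-7 replicates.

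**Figure D4:**
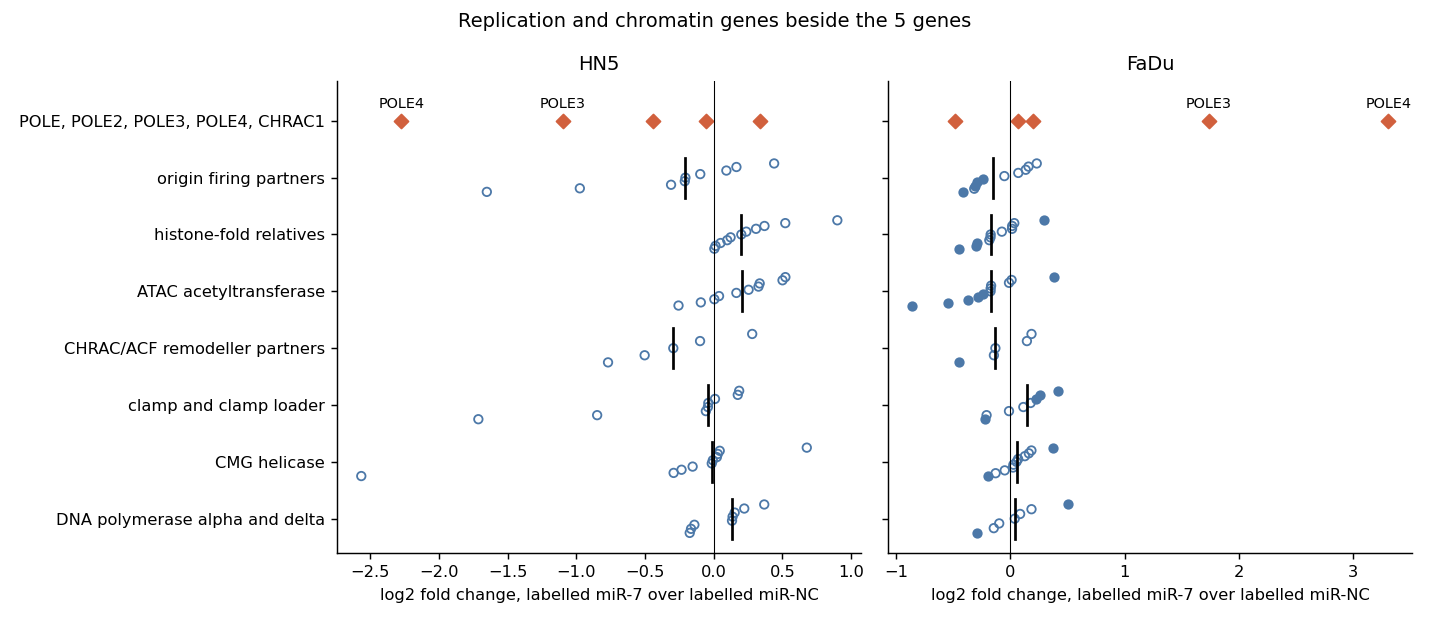
Log2 fold change of each listed gene in HN5 and in FaDu as labelled, with filled points for an adjusted p under 0.05, open points for the rest, black bars for list medians and diamonds for the 5 genes. The medians lie near 0 in both lines, and in FaDu the diamonds of POLE4 (3.31) and POLE3 (1.74) lie above all listed genes.

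Markers of the cells moved with the FaDu groups too. Of the 7 squamous epithelial markers, 5 were higher in the arrays labelled miR-7 (KRT5, KRT14, SFN, DSP and PKP1), against 20% of all genes. The other 2, CDH1 (-0.21, limma adjusted p = 0.05003) and EPCAM (-0.16, limma adjusted p = 0.108), had negative log2 fold changes and did not pass. The summed level of the 7 was 16523 to 16973 there and 14787 to 15817 in the arrays labelled miR-NC. In HN5, it was 92646 to 99716 with miR-7 and 104772 to 107738 with miR-NC. Of 7 fibroblast markers, 0 were detected on every FaDu array and 1 (COL1A1) on every HN5 array, and of 5 leukocyte markers only CD14 was in both lines. CD14 was lower in FaDu (399 to 467 against 534 to 559) and was 614 to 686 with miR-7 against 547 to 549 in HN5. Of 4 endothelial markers, PECAM1 was detected on every HN5 array and CDH5 on every FaDu array. CDH5 was higher in FaDu (log2 fold change 0.49, limma adjusted p = 0.00332). Of the groups in FaDu, VWF was detected on every array only of that labelled miR-7, and it is not counted here, since the detection filter let it in through the group where it was high. The part of these markers in the results on POLE3, POLE4 and CHRAC1 was not tested.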

How the data were processed

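Total RNA of 10 samples was measured on Illumina BeadChips. The authors deposited scanner intensities per probe and array, neither background-corrected nor normalized, and a detection value for each, a deposited fraction near 1 for bright probes that was read as 1 minus the detection p-value. They also deposited log2 values, variance-stabilized and quantile-normalized. The submitters' processing notes name R 2.11.0. Cells of these log2 tables do not follow the identifiers beside them (Spearman correlation with the array's own intensities 0.0102 to 0.0195), and read in the probe order of the intensities 0 ranks differed. They served as an alternative only.

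Here, neqc of limma 3.58.1 (R 4.3.3) subtracted the background estimated from detection p, added an offset of 16 and quantile-normalized the log2 intensities of each line by itself. A probe was used if its detection p was below 0.01 on all arrays of 1 or more groups, and a gene was read from the brightest such probe. Groups were tested by limma (lmFit, eBayes) with Benjamini-Hochberg adjustment across 9549 HN5 and 9997 FaDu genes. For the difference between lines, the moderated standard errors of the 2 fits were combined with degrees of freedom after Welch and Satterthwaite. The number of arrays limits the precision. Detected probes per array were 14158 to 14726 in HN5 and 16034 to 17424 in FaDu. The script was tested on simulated data. Plots used Python 3.11.15 with Matplotlib 3.10.9.

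The members and lists were chosen with earlier results of these data known. Named genes are the 5 members, the lowest and highest of each list in each line, the 5 genes nearest to POLE4, and EGFR. Other genes named from the lists were chosen after their values were seen. Alternatives covered background correction, offset, scaling, detection filter, probe choice, the authors' values, variance prior, the methods' t-test, a replicate block and left-out arrays.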

Additional observations from a re-analysis of the deposited data

Results flagged for a closer look

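The change of POLE4 differed between the lines by -5.58 on the log2 scale (HN5 minus FaDu as labelled). Both miR-7 arrays of HN5 lay below its miR-NC arrays and all 3 FaDu arrays labelled miR-7 lay above those labelled miR-NC. This difference was not tested, since POLE4 was chosen for its changes in these arrays.

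The change of POLE3 differed between the lines by -2.84 (SE 0.28, adjusted p = 0.00128 from the limma fits, n = 2 and 3 arrays per group). Dixon's test of outlying values was not run, and the HN5 groups of 2 arrays are too small for it. HN5 miR-7 replicate 2, which stood apart by its correlations, was the lowest HN5 array for POLE3, and without it the log2 fold change of POLE3 in HN5 was -0.85. The sign and size of both differences rest on the FaDu labels, by which EGFR also runs opposite to the direction that the study gives. With the sign of the FaDu contrast turned, the difference of POLE3 was 0.64 and did not pass (limma adjusted p = 0.510). That of POLE4 was then 1.03.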

How the results depend on the processing

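Of 204 alternative values of the partners' changes, 194 kept both their sign and their side of the threshold. These values include the fits that leave 1 HN5 array in a group. Of the 204, 4 changed sign, 3 of them with the FaDu sign turned. The other was POLE2 in HN5, at 0.02 without miR-7 replicate 2. POLE4 kept its sign in 50 of 51 alternative values, which is a description and no support, since it was chosen for its changes in these arrays. In FaDu as labelled, POLE3 stayed called higher and CHRAC1 lower under every alternative run, at log2 fold changes of 1.68 to 1.77 and -0.52 to -0.18 (1.65 to 1.86 and -0.52 to -0.45 with an array left out). The log2 fold change of POLE4 in FaDu was 3.10 without background correction and 3.08 on the authors' values, and its difference between lines was -5.30 without background correction, -5.77 with median scaling and -5.31 on the authors' values. Median scaling moved the median of all HN5 genes to -0.15.

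In HN5, POLE3 (log2 fold change -1.10) passed with a robust prior (limma adjusted p = 0.0456), which made 1 partner lower in place of 0, and 0 partners met the study's thresholds with the methods' t-test. The difference of POLE3 between lines stayed at -2.84 but missed the threshold with the methods' test (adjusted p = 0.0602), and was 0.64 with the FaDu sign turned, where that of POLE4 was 1.03. The difference of CHRAC1, 0.82, passed with detection on every array (limma adjusted p = 0.0378) and a robust prior (limma adjusted p = 0.0374).

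Counts of HN5 genes moved most. Against 12 lower and 17 higher, limma called 28 and 41 without background correction, 24 and 28 with an offset of 50, 66 and 84 with detection on every array, 21 and 36 on the authors' values and 116 and 140 with a robust prior. It called 0 and 0 without a detection filter or with the mean of a gene's probes, as did the methods' t-test (1261 genes had an unadjusted limma p under 0.05). Median scaling gave 25 lower, and 1221 higher in FaDu against 2003. The replicate block gave 1 lower and 10 higher, but same-numbered arrays did not deviate together (correlations of 0.0005 in HN5 and -0.032 to 0.057 in FaDu), so the numbers were not read as pairs.

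With an array left out, HN5 gave 0 to 837 genes lower, 0 to 937 higher and 0 to 1 partners lower. The log2 fold change of POLE4 in HN5 was -2.52 to -2.07 and that of POLE3 -1.33 to -0.85. The difference between lines was -5.83 to -5.37 for POLE4, -3.06 to -2.59 for POLE3 and 0.61 to 1.03 for CHRAC1. The largest CHRAC1 difference came without HN5 miR-7 replicate 1, where replicate 2, the array that stood apart, is the lone miR-7 array. Each such HN5 fit leaves 1 array in a group, assumed to vary like the other group. The planned count of seed matches was not run, since no transcript sequences were used here.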
